A study of Mus musculus with 20 samples.

Results

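The guanylate-binding proteins (GBPs) and immunity-related GTPases (IRGs) are 2 families of dynamin-like GTPases that cells make after exposure to interferon, mainly interferon gamma. They gather on the membranes of vacuoles that hold bacteria or parasites and take part in breaking these vacuoles open. Interferons act through cell surface receptors and Janus kinases, and the signal reaches promoters of such genes at gamma-activated sites and at interferon-stimulated response elements, which a complex with Irf9 binds. In mice, regulatory IRGs such as Irgm1 and Igtp sit on the cell's own membranes and hold effector IRGs such as Iigp1 and Ifi47 in check. A ubiquitin-like conjugation system shared with autophagy (Atg5, Atg12, Atg16l1 and the Gabarap proteins) helps to load them onto target membranes.

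The GTPase genes described here are Gbp2, Gbp3, Gbp7, Irgm1, Igtp, Iigp1 and Ifi47, 7 of the 8251 genes with a probe set of their own on the array. They were listed as members of these families, and all probe sets that the annotation of the MG_U74Av2 array maps to these symbols were taken. The list does not hold every family member on the array, as Irgm2 and Gbp2b are left out. It was drawn up with earlier results of these data known. The rule gave 8 probe sets: 104597_at for Gbp2, 103202_at for Gbp3, 100880_at for Gbp7, 97409_at for Irgm1, 160933_at for Igtp, 104750_at for Ifi47, and 96764_at and 103963_f_at for Iigp1. All 7 genes passed the filter on low signals, which asked for a mean above 68.8 in at least 1 of the 4 groups. Ifi47 passed it through SJL/J left ventricle alone, at a mean of 79.3 there. Gbp2 and both Iigp1 probe sets lay under it in C57BL/6 quadriceps. The suffix of 103963_f_at marks a probe set that can read several related transcripts, so the values of Iigp1 given below are those of the brighter 96764_at unless stated. Other interferon-inducible GTPases were looked up as well. Those with a probe set of their own on the array were Irgm2 and Mx2, described with the pathway below, and Gbp2b and Mx1, which lay under the filter in every group.

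Expression was measured on 20 arrays, 5 in each of 4 groups: SJL/J quadriceps, C57BL/6 quadriceps, SJL/J left ventricle and C57BL/6 left ventricle. All mice were female, 32 to 34 weeks old and kept free of pathogens. SJL/J mice carry a deletion within the reading frame of Dysf, the gene for dysferlin, which encodes a membrane repair protein of muscle, and develop a slow muscular dystrophy. C57BL/6 mice were the normal controls. SJL/J is an inbred strain of its own, so that strain background and dysferlin genotype cannot be told apart. Dysferlin itself was not analysed here. The labels give 5 mice per group and no more on how mice and arrays correspond.

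Several arrays went against their tissue label in part. The extraction text of the SJL/J quadriceps arrays names left ventricle, while their titles and source fields name quadriceps. The grouping followed the titles, and the fast skeletal fibre markers summed to between 59.9 and 147% of the C57BL/6 quadriceps median on these 5 arrays. SJL/J quadriceps arrays 1 and 5 also carried heart transcripts: the 8 cardiac markers summed to 112 and 126% of the C57BL/6 left ventricle median, against 21.6 to 47.8% on the other 3. SJL/J left ventricle array 1 and C57BL/6 left ventricle array 5 carried skeletal fibre transcripts, at 30.1 and 18.9% of the C57BL/6 quadriceps median. These 4 arrays make up fluidics run 3, 1 of 5 runs inferred from the hybridisation times. The strain differences of the 7 genes are therefore given with and without run 3. The Gapdh 5' to 3' signal ratio, a measure of how intact the RNA was, spanned 0.268 to 0.663 in SJL/J quadriceps and 0.487 to 1.06 in C57BL/6 quadriceps. It spanned 0.101 to 0.470 in SJL/J left ventricle and 0.697 to 0.866 in C57BL/6 left ventricle, without overlap.

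RefSeq promoter windows of build GRCm38.p6, reaching from 250 bases before to 50 bases after the gene's start, were at hand for 6 of the 7 genes. Each window was searched on both strands for GAAANNGAAA, a core of the interferon-stimulated response element, and for TTCNNNGAA, a core of the gamma-activated site. The first was found in 3.44% of all 32851 promoter windows and the second in 8.30%. Windows of 5 of the 6 GTPase genes held the first core. The 120 bases before the start are shown for these 5 genes, because the core lies within 60 bases of the start in each of them. Capitals mark the core on either strand, and TTTC marks its reverse complement.
Gbp2 (chr3:142620543-142620662, plus strand): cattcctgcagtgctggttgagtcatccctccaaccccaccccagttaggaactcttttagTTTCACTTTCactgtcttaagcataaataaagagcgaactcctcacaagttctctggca
Gbp3 (chr3:142559924-142560043, plus strand): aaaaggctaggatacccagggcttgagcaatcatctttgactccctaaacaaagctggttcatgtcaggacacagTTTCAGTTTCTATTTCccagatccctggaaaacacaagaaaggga
Gbp7 (chr3:142530216-142530335, plus strand): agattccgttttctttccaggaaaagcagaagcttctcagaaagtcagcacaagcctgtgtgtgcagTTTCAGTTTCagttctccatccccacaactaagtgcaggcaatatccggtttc
Irgm1 (chr11:48871421-48871540, minus strand): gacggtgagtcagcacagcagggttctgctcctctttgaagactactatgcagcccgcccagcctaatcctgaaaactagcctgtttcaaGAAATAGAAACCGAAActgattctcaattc
Igtp (chr11:58199436-58199555, plus strand): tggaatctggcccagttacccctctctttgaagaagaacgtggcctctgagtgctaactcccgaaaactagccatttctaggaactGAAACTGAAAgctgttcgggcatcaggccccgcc
In Gbp3 and Irgm1 the capitals hold 2 overlapping matches. Gbp3 has a second annotated start whose window held neither core, and the Ifi47 window held neither. The gamma-activated core was found in the windows of Gbp7 (at -106 and -87, counted from the start) and Igtp (at -45), in the stretches shown. These are matches of letters and no evidence of binding.

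In quadriceps, the question was how dystrophic SJL/J muscle differs from normal muscle. All 7 GTPase genes had a higher mean log2 signal in SJL/J, as did 57.7% of all 5473 tested genes, and 3 of them (Gbp2, Igtp and Iigp1) passed the test, where 11.6% of genes did and 6.27% were called higher. The members' median log2 difference, SJL/J minus C57BL/6, was 1.12, beside 0.09 over all genes tested. Differences were fitted with limma on log2 signals, and calls needed an adjusted p (Benjamini-Hochberg) under 0.05.

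**Figure D1:**
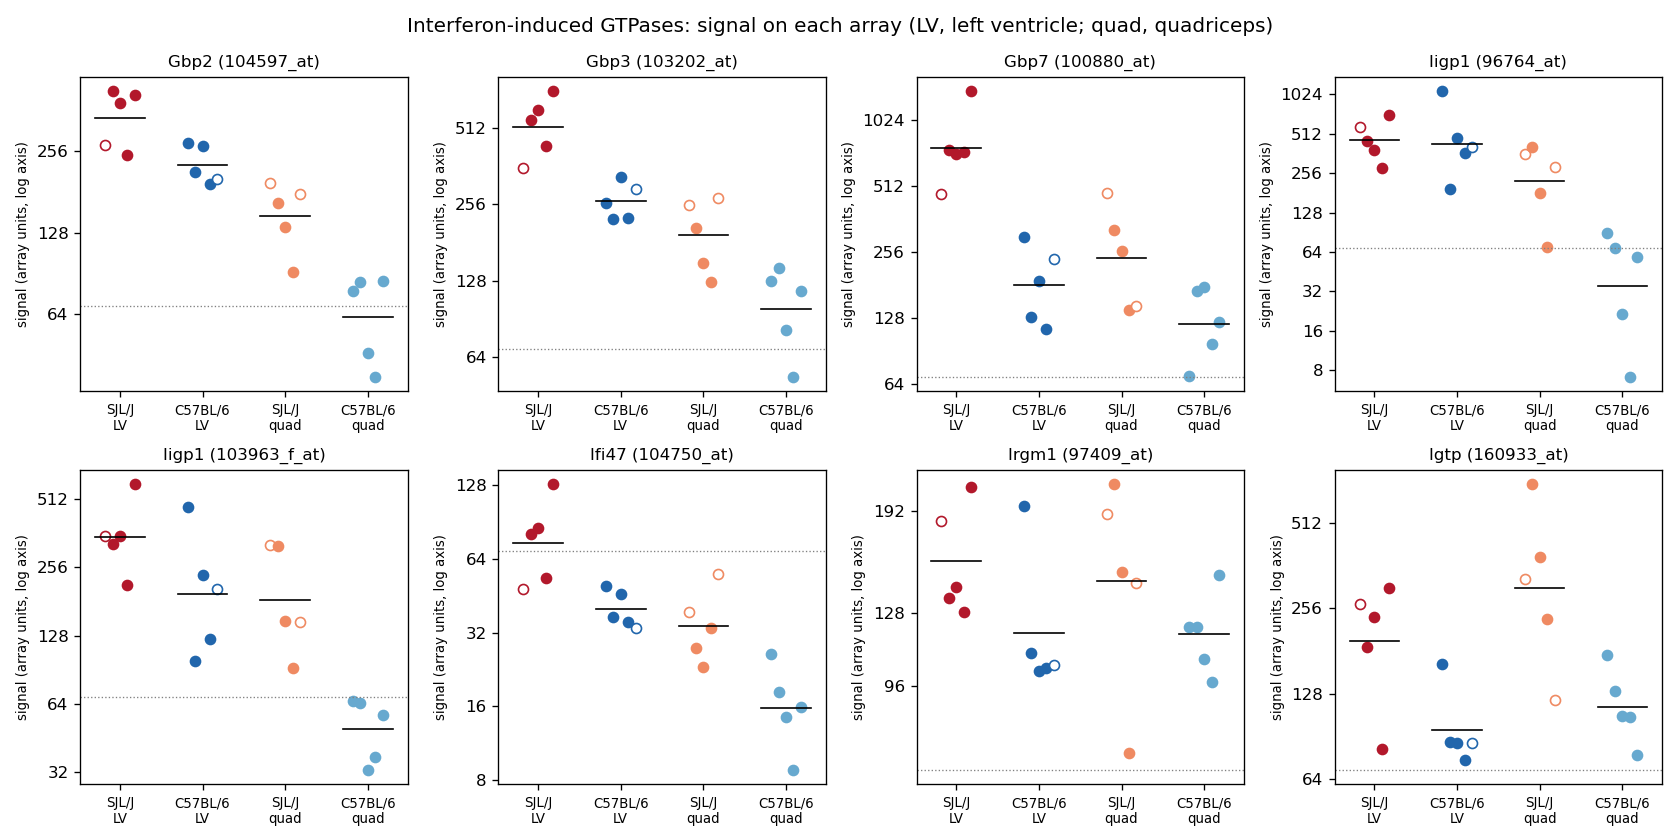
Signal of each GTPase probe set on each of the 20 arrays (log axis, array units), with SJL/J left of C57BL/6 and left ventricle left of quadriceps; open circles are the 4 arrays of fluidics run 3, the line is the geometric mean of 5 arrays and the dotted line is the filter at 68.8. The 5 SJL/J left ventricle values of Gbp7 (474.0 to 1386.8) lie above all C57BL/6 ones, and the highest Igtp value (698.6) was read in SJL/J quadriceps.

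Among the GBPs, Gbp2, which coats pathogen vacuoles, read 194.8, 165.5, 134.9, 92.0 and 177.6 on the 5 SJL/J quadriceps arrays, against 78.1, 84.5, 46.0, 37.6 and 84.7 on the C57BL/6 arrays. Every SJL/J value lay above every C57BL/6 value, as was so for 6.50% of tested genes. The log2 difference was 1.24 ± 0.30 (SE, n = 5 each), or 2.36-fold, with limma's adjusted p = 0.0195. Gbp3 read 255.5, 206.1, 149.9, 126.7 and 270.3 on SJL/J arrays, against 128.1, 143.7, 81.9, 53.4 and 116.5 on C57BL/6 arrays. One SJL/J array, number 4, fell within the C57BL/6 range, and the log2 difference of 0.97 ± 0.30 was just short of a call (limma's adjusted p = 0.0556; 0.0442 without array 4). Gbp7, which acts with autophagy proteins in macrophages, read 475.2, 323.9, 259.6, 139.6 and 145.7 on SJL/J arrays, against 69.7, 169.6, 177.0, 97.6 and 122.6 on C57BL/6 arrays. Only 3 of the SJL/J arrays lay above all C57BL/6 arrays, and its log2 difference of 1.0 ± 0.36 did not pass (adjusted p = 0.0910).

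Of the effector IRGs, Iigp1, a GTPase that coats Toxoplasma vacuoles, had the largest strain difference of the 7 genes in quadriceps. It read 356.3, 407.1, 181.0, 70.3 and 285.7 on SJL/J arrays, against 88.7, 68.8, 21.7, 7.1 and 58.8 on C57BL/6 arrays. SJL/J array 4 again lay inside the C57BL/6 range. The log2 difference was 2.64 ± 0.67 (SE, n = 5 each; limma's adjusted p = 0.0249), a fold of 6.25 on the log2 scale. With signals under 20 set to 20 it was 2.35 (limma's adjusted p = 0.0152). The second Iigp1 probe set read 92.0 to 320.4 on SJL/J arrays and 32.7 to 66.0 on C57BL/6 arrays, without overlap, with a log2 difference of 1.88 ± 0.36 (adjusted p = 0.00677). Ifi47 read 23.2 to 55.7 on SJL/J arrays and 8.80 to 26.2 on C57BL/6 arrays, all of them under the filter of 68.8. Its log2 difference of 1.12 ± 0.44 did not pass (limma's adjusted p = 0.117). With signals under 20 set to 20 it was 0.69 (adjusted p = 0.153).

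The 2 regulatory IRGs differed from each other in their values. Igtp, a regulatory IRG of the endoplasmic reticulum, read 325.0, 698.6, 389.3, 235.3 and 121.1 on SJL/J quadriceps arrays, against 174.8, 130.9, 106.7, 105.8 and 77.6 on C57BL/6 arrays. SJL/J array 5, with heart transcripts, held the lowest SJL/J value and was alone in overlapping the C57BL/6 range. The log2 difference was 1.39 ± 0.39 (SE, n = 5 each; limma's adjusted p = 0.0362), or 2.63-fold. Irgm1, which sits on the Golgi and lysosomes, read 189.3, 212.8, 150.5, 73.7 and 144.0 on SJL/J arrays, against 121.0, 121.0, 106.8, 97.6 and 148.5 on C57BL/6 arrays. Its groups overlapped, and the log2 difference was 0.30 with a 95% interval of -0.28 to 0.88 (adjusted p = 0.496).

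The quadriceps calls depended on which arrays entered and on the processing. Without the arrays of run 3, 1 of the 7 genes was called, against 9.67% of all genes. That gene was Igtp, at a log2 difference of 1.80 ± 0.35 (n = 3 SJL/J and 5 C57BL/6; limma's adjusted p = 0.0122). Gbp2 then stood at 1.02 ± 0.35 (adjusted p = 0.0941) and Iigp1 at 2.29 ± 0.82 (adjusted p = 0.108). Gbp3 stood at 0.67 (adjusted p = 0.236), Gbp7 at 0.92 (0.141), Ifi47 at 0.82 (0.305) and Irgm1 at 0.18 (0.776). Leaving out 1 array at a time, Gbp2 stayed called in all 10 fits. The Igtp call was lost without SJL/J array 1, 2, 3 or 4 and without C57BL/6 array 2, 3 or 5 (adjusted p 0.0507 to 0.0835). It was also lost after quantile normalization (1.28, adjusted p = 0.053), after median centring (1.25, 0.0573), without the filter (1.39, 0.0613) and when the Gapdh ratio entered the fit (1.78, 0.0773). The Iigp1 call was lost without SJL/J array 1 or 2 and without C57BL/6 array 3 (adjusted p 0.0579 to 0.0617). Run 5 alone held quadriceps arrays of both strains, SJL/J arrays 2 to 4 and C57BL/6 array 4, and a fit that blocks on run takes its strain differences from these 4 arrays. Within it the log2 differences were 1.76 for Gbp2, 1.56 for Gbp3, 1.22 for Gbp7, 4.61 for Iigp1, 1.66 for Ifi47, 0.45 for Irgm1 and 1.92 for Igtp. The Iigp1 value rests on a low signal of 7.1 on C57BL/6 array 4, and the second Iigp1 probe set gave 2.12. With run as a block, Gbp2 (adjusted p = 0.0163), Gbp3 (0.0127) and Iigp1 (0.00487) were called and Igtp was not (0.0583). With chip lot as a block, which again leaves C57BL/6 array 4 as the control, the same 3 genes were called and Igtp stood at 1.51 (adjusted p = 0.174). C57BL/6 array 4 had the lowest value of its group for Gbp2, Gbp3, Irgm1, Ifi47 and Iigp1, and its skeletal fibre markers summed to 260% of the group's median.

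In left ventricle, where SJL/J mice have the same deletion, 5 of the 7 genes were called higher in SJL/J, beside 33.4% of all genes called and 17.6% called higher. They were Gbp2, Gbp3, Gbp7, Igtp and Ifi47. Ifi47 entered the test through SJL/J left ventricle alone, so that its call is not counted: of the other 6 genes 4 were called, at a median log2 difference over the 6 of 0.77, beside 0.04 over all genes. All 6 differences were above 0, as were 53.6% of all genes. Gbp7 had the largest difference. It read 474.0, 746.6, 717.9, 734.6 and 1386.8 on SJL/J arrays, against 299.3, 129.0, 188.3, 114.7 and 239.4 on C57BL/6 arrays. The groups stood apart, with a log2 difference of 2.07 ± 0.29 (SE, n = 5 each; limma's adjusted p = 0.000244), or 4.19-fold. Array 5 was the highest SJL/J array for Gbp7, and also for Gbp3, Irgm1, Igtp, Ifi47 and Iigp1. This array also had the lowest Gapdh ratio of the series (0.101), and a link between the ratio and these values was not tested.

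Gbp3 read 354.9, 548.6, 604.6, 434.7 and 712.9 on SJL/J left ventricle arrays, against 260.3, 223.2, 327.7, 225.9 and 293.9 on C57BL/6 arrays. These groups did not overlap either, as was so for 10.7% of tested genes, and the log2 difference was 0.97 ± 0.18 (adjusted p = 0.00157). Gbp2 read 270.5, 424.6, 386.2, 247.3 and 411.8 on SJL/J arrays, against 274.0, 213.5, 267.5, 194.4 and 201.5 on C57BL/6 arrays. SJL/J arrays 1 and 4 lay under the highest C57BL/6 array, and the log2 difference was 0.58 ± 0.17 (adjusted p = 0.0217). Ifi47 read 48.0, 80.6, 85.8, 53.5 and 128.6 on SJL/J arrays, against 49.5, 37.0, 46.1, 35.5 and 33.5 on C57BL/6 arrays. The log2 difference was 0.90 ± 0.27 (adjusted p = 0.0209; 0.0391 in a fit without the filter), and 4 of the 5 SJL/J arrays lay above all C57BL/6 ones.

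Igtp read 265.8, 187.4, 237.4, 81.8 and 302.0 on SJL/J left ventricle arrays, against 163.2, 86.4, 85.9, 74.5 and 86.0 on C57BL/6 arrays. SJL/J array 4 lay inside the C57BL/6 range, and the log2 difference was 1.05 ± 0.32 (limma's adjusted p = 0.0239; 0.0548 without the filter). Irgm1 read 183.9, 136.1, 142.1, 128.4 and 211.0 on SJL/J arrays, against 195.7, 109.2, 101.8, 103.0 and 104.1 on C57BL/6 arrays. C57BL/6 array 1 stood above 4 of the SJL/J arrays, and the log2 difference of 0.41 (95% interval -0.04 to 0.86) did not pass (adjusted p = 0.146). Without that array it was 0.59 (adjusted p = 0.0192). Iigp1 read 577.7, 451.9, 382.0, 279.4 and 706.3 on SJL/J arrays, against 1074.7, 194.2, 473.0, 362.0 and 408.0 on C57BL/6 arrays. C57BL/6 array 1 gave the highest Iigp1 value of the series, the groups overlapped, and the log2 difference was 0.09 with a 95% interval of -0.71 to 0.88 (adjusted p = 0.878). The second Iigp1 probe set gave 0.84 ± 0.37, also short of a call (adjusted p = 0.101).

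**Figure D2:**
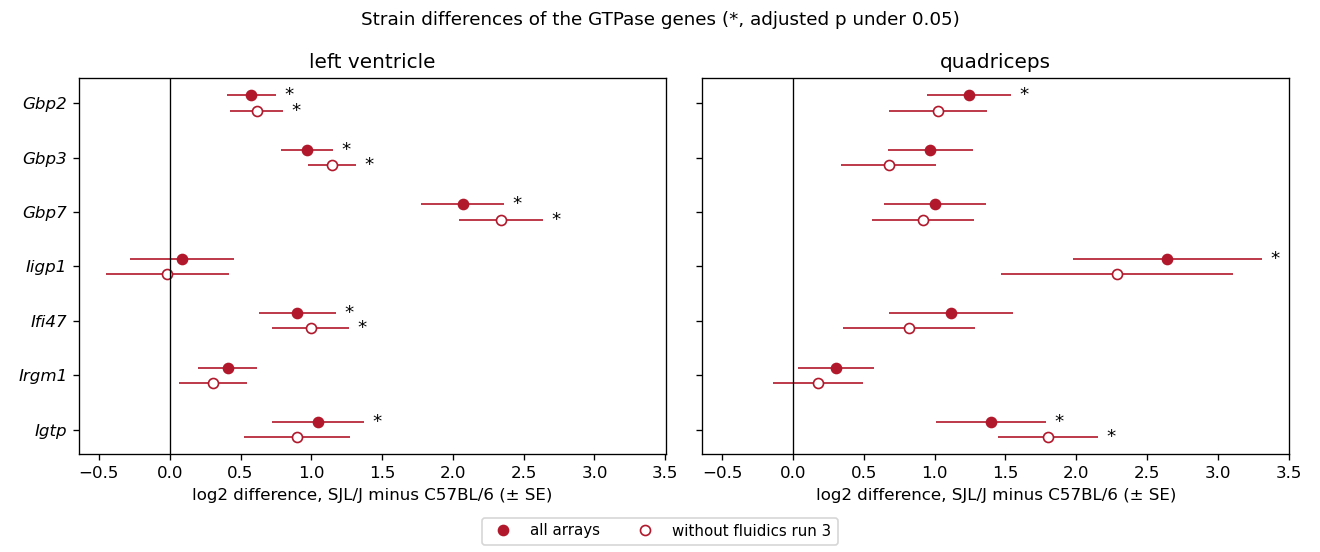
Log2 difference between SJL/J and C57BL/6 arrays of each GTPase gene with its standard error, in left ventricle (left) and quadriceps (right); filled circles use all 10 arrays of the tissue, open circles leave out fluidics run 3, and stars mark an adjusted p under 0.05. Gbp7 has the largest difference in left ventricle (2.07) and Iigp1 in quadriceps (2.64), and Igtp alone keeps a star in quadriceps without run 3.

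Without run 3 (n = 4 each), 35.3% of all genes were called in left ventricle. Gbp7 was called at 2.34 ± 0.30 (limma's adjusted p = 0.000202), Gbp3 at 1.14 ± 0.17 and Gbp2 at 0.61 ± 0.19. Ifi47 passed too, at 1.0 ± 0.27. It entered the test through SJL/J left ventricle alone, so that its call is again not counted. Igtp stood at 0.90 ± 0.37 (adjusted p = 0.0822), Irgm1 at 0.31 (0.344) and Iigp1 at -0.017 (0.978). Gbp3 and Gbp7 stayed called in each of the 10 fits that left out 1 array. The Gbp2 call was lost without C57BL/6 array 4 or 5 or SJL/J array 2, 3 or 5 (adjusted p 0.0504 to 0.0573), the Igtp call without C57BL/6 array 3 or 4 or SJL/J array 3 or 5 (0.0504 to 0.0602), and the Ifi47 call without SJL/J array 3 (0.0505). The strains differed in the Gapdh ratio and in run. With that ratio as a covariate none of the 7 genes was called in left ventricle, the differences lying between -0.49 for Ifi47 and 0.52 for Igtp, and 33 genes were called in all. Within run 3, which held 1 array of each strain, the log2 differences were 0.99 for Gbp7, 0.27 for Gbp3, 0.42 for Gbp2, 0.52 for Ifi47, 1.63 for Igtp, 0.82 for Irgm1 and 0.50 for Iigp1. With run as a block again no member was called, among 48 genes called in all. Strain can hardly be told apart from run and RNA quality in left ventricle. In quadriceps, only C57BL/6 array 4 shared a run and a chip lot with SJL/J arrays. Its Gapdh ratio (0.487) was also the only C57BL/6 one within the SJL/J range there. Strain can hardly be told apart from run, chip lot and RNA quality in quadriceps either.

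The strain differences of the 2 tissues were compared through their interaction, the difference in quadriceps minus that in left ventricle, in which 16.0% of genes were called. Of the 7 genes, Iigp1 passed, with a larger strain difference in quadriceps by 2.56 ± 0.83 (SE, 20 arrays; limma's adjusted p = 0.0411). The second Iigp1 probe set gave 1.05 ± 0.56 (adjusted p = 0.213). The call was lost in 12 of the 20 fits that left out 1 array, and it was kept without SJL/J quadriceps array 4, SJL/J left ventricle array 1 or 5, C57BL/6 left ventricle array 2 or C57BL/6 quadriceps array 1, 2, 4 or 5. Without run 3 the value was 2.31 ± 1.01 (adjusted p = 0.118). Gbp7 had a smaller difference in quadriceps than in left ventricle by a log2 value of -1.06 ± 0.50, which did not pass (adjusted p = 0.153). The interaction was -0.11 for Irgm1, 0.21 for Ifi47, 0.35 for Igtp and 0.66 for Gbp2, none of them called, so that no difference between the tissues was shown for these genes.

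Heart and skeletal muscle were compared within each strain. In SJL/J, left ventricle was higher than quadriceps for 4 of the 7 genes (Gbp2, Gbp3, Gbp7 and Ifi47), where 37.2% of all genes were called and 21.3% were called higher. Ifi47 had entered the test through that left ventricle group, and of the other 6 genes 3 were called. In C57BL/6, left ventricle was higher for 4 of the 7 (Gbp2, Gbp3, Iigp1 and Ifi47), where 49.7% of genes were called and 30.2% were called higher. No fluidics run held C57BL/6 arrays of both tissues: left ventricle was in runs 2 and 3, quadriceps in runs 1 and 5. Of these quadriceps arrays only number 4 shared the chip lot of the left ventricle arrays. Tissue and run cannot be told apart in C57BL/6. The 2 tissue comparisons use different arrays from each other but share groups with the strain comparisons. A whole-tissue signal cannot tell a change in the number of cells that make a transcript from a change in its level per cell.

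Gbp2 averaged 348 ± 83.0 in SJL/J left ventricle and 153 ± 40.5 in SJL/J quadriceps (SD, n = 5 each), a log2 difference of 1.2 (limma's adjusted p = 0.00270). It averaged 230 ± 37.7 in C57BL/6 left ventricle and 66.2 ± 22.6 in C57BL/6 quadriceps, a log2 difference of 1.86 (adjusted p = 6.27e-05). Heart and quadriceps arrays did not overlap in either strain, as was so for 13.0% of genes in SJL/J and 22.1% in C57BL/6. Gbp3 was likewise apart in both strains, with log2 differences of 1.42 in SJL/J (adjusted p = 0.00175) and 1.41 in C57BL/6 (adjusted p = 0.000572). For both genes the order of the groups was SJL/J left ventricle, C57BL/6 left ventricle, SJL/J quadriceps and C57BL/6 quadriceps. The middle pair differs in strain and tissue at once and was not tested.

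Iigp1 averaged 479 ± 167 in SJL/J left ventricle and 260 ± 136 in SJL/J quadriceps, and the log2 difference of 1.04 did not pass (adjusted p = 0.0770; 0.0494 without SJL/J quadriceps array 1). Without SJL/J quadriceps array 4, the lowest there, it was 0.63 (adjusted p = 0.130). It averaged 502 ± 336 in C57BL/6 left ventricle and 49.0 ± 33.8 in C57BL/6 quadriceps, a log2 difference of 3.60 (adjusted p = 0.000527). The 5 normal hearts all read above the 5 normal quadriceps, the lowest at 194.2 against a highest of 88.7. Ifi47 was higher in left ventricle by 1.12 in SJL/J (adjusted p = 0.0210; 0.0302 without the filter) and by 1.34 in C57BL/6 (adjusted p = 0.00717). The SJL/J call was lost without left ventricle array 3 or 5 or quadriceps array 3 (adjusted p 0.0514 to 0.0521). The C57BL/6 call was lost with run as a random block (1.44, limma's adjusted p = 0.0510).

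Gbp7 averaged 812 ± 341 in SJL/J left ventricle and 269 ± 139 in SJL/J quadriceps, and was called there at a log2 difference of 1.66 (adjusted p = 0.00453). In C57BL/6 it averaged 194 ± 77.0 in left ventricle and 127 ± 46.0 in quadriceps, with overlapping arrays and a log2 difference of 0.60 (adjusted p = 0.132). Igtp ran the other way in both strains without a call. It averaged 215 ± 85.4 in SJL/J left ventricle and 354 ± 217 in SJL/J quadriceps (log2 difference -0.62, adjusted p = 0.296), and 99.2 ± 36.1 in C57BL/6 left ventricle and 119 ± 36.4 in C57BL/6 quadriceps (log2 difference -0.27, adjusted p = 0.406). Irgm1 had log2 differences of 0.12 in SJL/J (adjusted p = 0.752) and 0.01 in C57BL/6 (adjusted p = 0.980), the sign of which varied with the scaling in C57BL/6. In SJL/J without run 3, Gbp2, Gbp3 and Gbp7 were called at log2 differences of 1.5, 1.85 and 1.92, where 53.7% of all genes were called. Ifi47 passed too, at 1.58, but it entered the test through SJL/J left ventricle alone and is not counted. Igtp stood at -1.14 (limma's adjusted p = 0.0618). With run as a block, resting in SJL/J on the 3 arrays of run 3 alone, none of the 7 was called there, and 17 genes were called in all. With the Gapdh ratio as a covariate Gbp3 alone was called in SJL/J (1.03, limma's adjusted p = 0.0339), and in C57BL/6 4 of the 7 were called. With chip lot as a block, the C57BL/6 tissue differences rest on quadriceps array 4 alone. They were then 2.60 for Gbp2, 2.30 for Gbp3, 0.90 for Gbp7, 5.92 for Iigp1, 2.18 for Ifi47, 0.28 for Irgm1 and -0.15 for Igtp.

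**Figure D3:**
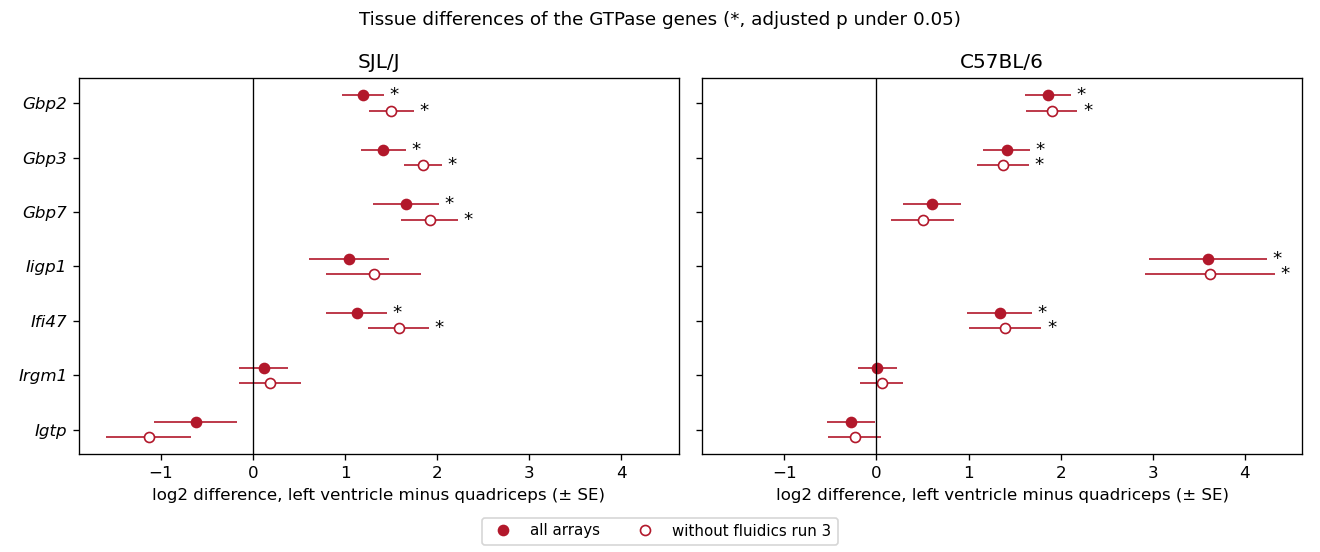
Log2 difference between left ventricle and quadriceps of each GTPase gene with its standard error, in SJL/J (left) and C57BL/6 (right); filled circles use all 10 arrays of the strain, open circles leave out fluidics run 3, and stars mark an adjusted p under 0.05. Iigp1 reaches 3.60 in C57BL/6 and 1.04 in SJL/J, and Igtp lies below 0 in both strains.

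Some of the GTPase genes also varied together among arrays of the same group. As a description over 20 arrays, the deviations from the group means of Gbp2 and Gbp3 had a Pearson r of 0.90. Among Gbp2, Gbp3, Iigp1 and Ifi47, the 6 within-group values of r lay between 0.58 and 0.90. Igtp with these 4 genes lay between 0.06 and 0.42, and Gbp7 with the other 6 between 0.13 and 0.56. The lowest values were 0.06 for Igtp with Ifi47 and 0.08 for Igtp with Gbp3. Over all pairs of tested genes the within-group r had a median of 0.0025 and a 95th percentile of 0.55. These arrays share scaling, run and RNA quality, all of which can move genes together. The share of each gene's variance on the log2 scale that lay between the 4 groups was 85.8% for Gbp2 and 82.5% for Gbp3, and it was 54.2% for Igtp and 20.0% for Irgm1. The 2 Iigp1 probe sets had an r of 0.92 over the 20 arrays.

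**Figure D4:**
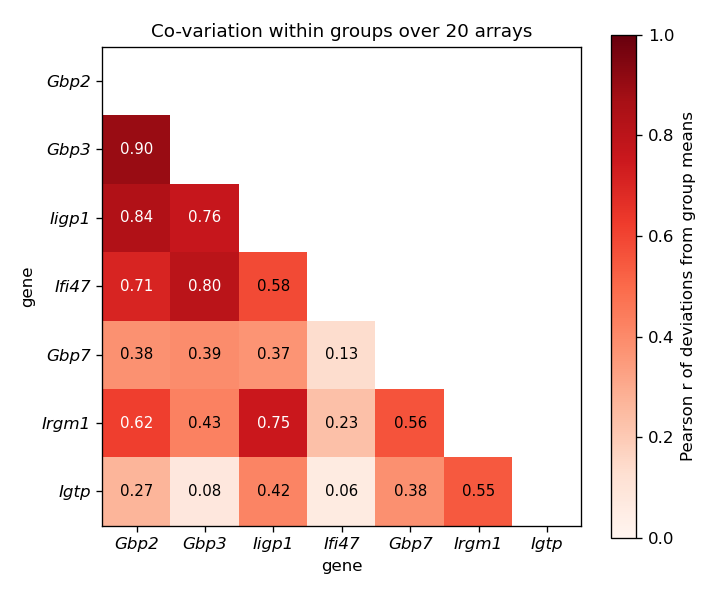
Pearson r between GTPase genes of the deviations of log2 signal from the group mean, over 20 arrays; darker red is a higher r. Gbp2, Gbp3, Iigp1 and Ifi47 form the block of high values (0.58 to 0.90), and Igtp against them lies between 0.06 and 0.42.

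The genes whose signals were most like the mean of the 7 GTPase genes over the 20 arrays, each gene scaled to the same spread, were Rbms1 (r = 0.91), Sfxn1 (0.90), Irf9 (0.90), Sh3bgrl (0.90), Lilr4b (0.90) and Apobec1 (0.90). Over all other tested genes the median r was 0.14 and the 99th percentile 0.84. Irf9 is the DNA-binding subunit of the interferon-stimulated gene factor. Within groups its r was 0.60, beside 0.75 for Rbms1 and 0.78 for Sh3bgrl.

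The other genes of the interferon pathway were counted in the same fits, in which 11.6% of all genes were called in quadriceps and 33.4% in left ventricle. Of the 9 interferon ligands and receptors on the array 4 passed the filter, all of them receptor chains, and in quadriceps none was called by limma at an adjusted p under 0.05. Ifnar2, a chain of the type I receptor, had the smallest p there (unadjusted p = 0.0169), at a log2 difference of 1.59 (adjusted p = 0.0935), and it was the only one of the 4 under 0.05 before adjustment. In left ventricle Ifngr2, the signalling chain of the interferon gamma receptor, was lower in SJL/J by a log2 value of -1.58 ± 0.31 (adjusted p = 0.00240), and the other 3 were not called.

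Of 13 tested signalling genes, 4 were called higher (6.27% of all genes were) and 0 lower in SJL/J quadriceps, and the median was 0.48. They were Socs3, a feedback inhibitor of cytokine signalling (2.42, adjusted p = 0.000815, from a probe set of the shared kind), Irf9 (1.63, adjusted p = 0.0163), Irf1, a transcription factor that drives many GBP and IRG genes (0.82, adjusted p = 0.00575), and Stat3 (0.77, adjusted p = 0.00577). Socs3 passed the filter through the SJL/J groups alone, so that its call is not independent of the filter. In left ventricle 5 were called higher and 1 lower, with a median of 0.61. Over all genes, 17.6% were called higher there and 33.4% in either direction. Socs1, the main feedback inhibitor of interferon gamma signalling, was higher by 2.26 ± 0.24 (adjusted p = 2.7e-05), Irf9 by 0.97, the kinase Jak2 by 0.98, the phosphatase Ptpn2 by 0.61 and Irf8 by 0.61, while Irf3 was lower (-0.58). Irf8 and Irf3 were named after their values were seen. Irgm2, the third regulatory IRG of the mouse, was higher in SJL/J in both tissues, by 1.08 ± 0.30 in quadriceps (adjusted p = 0.0376) and 0.92 ± 0.30 in left ventricle (adjusted p = 0.0321). Mx2 was called in neither (0.36 and 0.55). Without run 3, 3 signalling genes were called higher in quadriceps (9.67% of all genes called), and 6 higher and 1 lower in left ventricle (35.3%).

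Of 20 other interferon-induced genes, 11 were called higher (6.27% of all genes were) and 0 lower in SJL/J quadriceps, with a median of 0.79. Examples were Psmb9, a subunit of the immunoproteasome (3.03, adjusted p = 0.00343), Psme1, a proteasome activator (1.49, adjusted p = 0.000893), and B2m, the light chain of MHC class I (1.28, adjusted p = 0.00335). Without run 3, 5 of the 20 were called higher in quadriceps (9.67% of all genes called), and 6 higher and 3 lower in left ventricle (35.3%). In left ventricle 6 were called higher and 3 lower, with a median of 0.27. Ifit1 and Ifit2, called higher, passed the filter through SJL/J left ventricle alone (means 132 and 118). Rsad2, called lower, passed it through C57BL/6 left ventricle alone (83.6). Their calls are included in these counts but are not independent of the filter. Over all genes, 17.6% were called higher there and 33.4% in either direction. Ifi204 was higher (1.18, adjusted p = 0.000598, from a probe set of the shared kind), as was Psmb9 (0.87), while the antiviral gene Rsad2 was lower (-1.26, adjusted p = 0.00234), as were Ifi35 (-1.22) and Ifitm3 (-0.41), the last named after its value was seen. Of the 8 tested genes of the conjugation system none was called in quadriceps by limma, where Gabarapl1 (0.54, adjusted p = 0.0682) was the only one with an unadjusted p under 0.05 (0.0102). In left ventricle Map1lc3a (-1.35, adjusted p = 8e-06), Gabarap (-0.98) and Atg16l1 (-0.71) were lower in SJL/J, and Atg12 was higher (0.35, adjusted p = 0.05 after rounding).

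Markers of macrophages moved with the strain difference in quadriceps. The 12 macrophage markers on the array summed to between 2040 and 3273 in SJL/J quadriceps and between 740 and 1218 in C57BL/6 quadriceps, without overlap. Of 9 tested, 4 were called higher there: Ctss (2.80, adjusted p = 0.000298), Lyz2 (2.10), Mpeg1 (1.65) and Csf1r (1.43). The sums spanned 2370 to 3620 in SJL/J left ventricle and 1638 to 2373 in C57BL/6 left ventricle, where 4 were called higher and Cd68 lower (-0.49, adjusted p = 0.0343). Over all genes, 6.27% were called higher in quadriceps, and 17.6% higher and 33.4% in either direction in left ventricle. Without run 3, 4 of the 9 were called higher in quadriceps (9.67% of all genes called), and 3 were called higher and 1 lower in left ventricle (35.3%). Over the 20 arrays the mean of the 7 GTPase genes and the macrophage sum had an r of 0.80, and of 0.29 within groups. For the endothelial sum r was 0.63 (0.30 within groups), for the cardiac sum 0.63 (-0.01), for the B cell sum 0.42 (0.09), for the T and NK cell sum 0.16 (-0.17) and for the skeletal fibre sum -0.56 (-0.12). T and NK cell markers summed to 351 to 640 in SJL/J quadriceps and 231 to 599 in C57BL/6 quadriceps, and to 409 to 523 in SJL/J left ventricle and 308 to 426 in C57BL/6 left ventricle. Of these 15 markers 12 were under the filter in every group, Cd3e, Cd3d, Cd3g and Cd8a among them with means of at most 17.4. Of the 3 tested, Zap70, a T cell kinase, was called higher in quadriceps (1.32, adjusted p = 0.0453) and Thy1 in left ventricle (1.12, 0.0292). Zap70 passed the filter through SJL/J quadriceps alone (mean 101.3), so that its call is not independent of the filter. B cell markers summed to 294 to 450 in SJL/J quadriceps and 291 to 498 in C57BL/6 quadriceps, and to 382 to 546 in SJL/J left ventricle and 275 to 382 in C57BL/6 left ventricle. Jchain, a component of secreted antibodies, was called higher in both tissues (1.7 in quadriceps, adjusted p = 0.0371, and 1.49 in left ventricle, 0.00735) and Ms4a1 in left ventricle (0.56, 0.0249). Jchain passed the filter through the SJL/J groups alone, so that its calls are not independent of the filter either. In quadriceps Ms4a1 (-0.29) and Cd79a (-0.70) were not called. Endothelial markers summed to 1388 to 3606 in SJL/J quadriceps and 1569 to 1862 in C57BL/6 quadriceps, and to 4934 to 8670 in SJL/J left ventricle and 5015 to 7047 in C57BL/6 left ventricle. The part of these cells in the differences of the GTPase genes was not tested.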

How the data were processed

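Total RNA, 8 µg per the labels' protocols, was labelled and hybridised to Affymetrix MG_U74Av2 arrays. Each probe set has 1 deposited intensity per array, linear and scaled by the authors to a common level: trimmed means lay between 199.4 and 199.9. The sources used here do not name the software that summarised the probes, and depth has no meaning for arrays, whose number limits the precision. Chip lot, wash protocol and hybridisation times came from the experiment reports, per the file headers, and a gap of over 20 minutes started a new fluidics run. SJL/J quadriceps array 1 alone had a different wash protocol from all other arrays. Signals were floored at 3.1, the 5th percentile, before taking log2. The brightest probe set stood for each gene. The second Iigp1 probe set was fitted with all 6439 probe sets of 1 gene symbol that passed the filter. Its adjusted p values come from that fit. Genes with a mean above the median signal of 68.8 in at least 1 group, 5473 in all, were tested in R 4.3.3 by limma 3.58.1, using lmFit and eBayes with trend, on the 10 arrays compared or all 20 for the interaction, with Benjamini-Hochberg adjustment over all of them. The fits were tested on simulated data. Figures used matplotlib 3.10.9.

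The 7 genes, gene lists and comparisons were chosen with earlier results of these data known. Per list and strain comparison, up to 4 tested genes with the smallest p were eligible to be named. P-values measure only the spread between these arrays. Alternatives covered the floor, scaling, filter, probe set choice, run, chip lot, Gapdh ratio, replicate block and leaving out arrays. Same-numbered deviations correlated at -0.25 to 0.13, which gave no sign that replicate numbers pair the samples. Run and RNA quality can also move these deviations, so the correlations cannot tell whether same-numbered arrays of both tissues came from the same mouse.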

Additional observations from a re-analysis of the deposited data

Results flagged for a closer look

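In the C57BL/6 left ventricle, array 1 stood far above the other 4 arrays for both regulatory IRGs. Igtp read 163.2 on it, against 74.5 to 86.4 on the other 4 arrays, and Irgm1 read 195.7, against 101.8 to 109.2. In each case the gap to the next array took up more of the group's range on the log2 scale (0.81 for Igtp and 0.89 for Irgm1) than Dixon's critical value of 0.71 for 5 arrays allows. The array also read highest of its group for Iigp1 (1074.7). The check covered 32 sets of 5 arrays, of which chance flags about 1 in 20.

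The strain difference of Iigp1 was larger in quadriceps than in left ventricle by a log2 value of 2.56 in the interaction test (limma's adjusted p = 0.0411), where 16.0% of genes were called. The second Iigp1 probe set gave 1.05 (adjusted p = 0.213). The first was called in 12 of the 30 alternative fits (adjusted p 0.00178 to 0.118).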

How the results depend on the processing

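Among member results, directions and calls were kept in 118 of 140 alternative fits for the quadriceps strain difference, 105 of 133 for left ventricle, 173 of 210 for the interaction, 134 of 140 for the C57BL/6 tissue difference and 118 of 133 for that in SJL/J. The cause of the changes below was not tested. Without run 3, called members fell to 1 in quadriceps and 0 in the interaction. With run as a block, called genes numbered 958 in quadriceps (635 without the block), 48 (1828) in left ventricle, 287 (877) for the interaction and 17 in the SJL/J tissue difference (2037), and called members 0 in the last 3. With the Gapdh ratio as a covariate, 339 genes were called in quadriceps, 33 in left ventricle (0 members) and 566 in the SJL/J tissue difference (1 member), and no member in the interaction. The interaction called 0 members after quantile normalization, median centring or without the filter, and 2 (Iigp1 and Gbp2) with chip lot as a block. A random run block, added after seeing the data, called 1650 genes in the C57BL/6 tissue difference (2720 without it). Ifi47 lost its call there (1.44, limma's adjusted p = 0.0510).

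Signs turned for Iigp1 in left ventricle without run 3 (-0.017) and, with the Gapdh ratio, for Iigp1 (-0.48), Ifi47 (-0.49) and Irgm1 (-0.34) there and Irgm1 in the SJL/J tissue difference (-0.056). In the interaction they turned for Ifi47 with a floor of 20 (-0.21) and without run 3 (-0.18), for Gbp3 (1.29) and Gbp7 (0.23) with the run block, and for Gbp3 (0.89) and Irgm1 (0.16) with the lot block. They turned for Irgm1 in the C57BL/6 tissue difference after quantile normalization (-0.16) and median centring (-0.19), and for Igtp in the SJL/J tissue difference with the run block (0.42).

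Leaving out 1 array at a time gave 411 to 972 called genes and 1 to 3 members in quadriceps (972 without C57BL/6 array 4), 2 to 6 members in left ventricle, and 675 to 1347 genes and 0 to 1 members in the interaction (1347 without C57BL/6 quadriceps array 4). Signs turned within these fits for Iigp1 in left ventricle (-0.20 to 0.42), for Gbp3 (-0.22 to 0.15) and Irgm1 (-0.29 to 0.14) in the interaction, and for Irgm1 between tissues in C57BL/6 (-0.17 to 0.092) and SJL/J (-0.13 to 0.25). Median centring moved the share of called genes that were higher to 32.2% (54.0% as deposited) in quadriceps, 37.0% (57.6%) in the interaction and 44.2% (60.7%) in the C57BL/6 tissue difference, and the all-gene median to -0.06 (0.09), -0.07 (0.08) and -0.07 (0.14). With the replicate block 507, 1515, 805, 2537 and 1623 genes were called for quadriceps, left ventricle, interaction, C57BL/6 tissues and SJL/J tissues, and the block added calls for Gbp3 in quadriceps (adjusted p = 0.020) and Iigp1 in the SJL/J tissue difference (0.021). A chip lot block was not run where all arrays share a lot (left ventricle and SJL/J tissues). A fixed run block was not run for C57BL/6 tissues, as no run held both.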
